A study of Mus musculus with 26 samples.

Results

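The subject of this report is the set of genes that make cholesterol and handle it inside the cell, read in sorted mesenchyme of the mouse fetal reproductive tract. The set was chosen by gene name, but with earlier results of these data known, so its shares of called genes do not come from a blind choice. It holds 18 enzymes of synthesis, 5 regulators of the sterol-responsive transcription factors and 5 genes of sterol transport and efflux. These are 28 genes in all among 41442 gene rows of each count table. The names matched 29 rows, because Tm7sf2 was listed on a pair of rows, and the extra row held 0 counts in every library. All 28 genes passed the low-count filter in both tables.

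Cholesterol is built from acetyl-CoA through mevalonate, isoprenoid units and squalene, and the last steps reshape lanosterol into cholesterol. The transcription factors SREBP2 and SREBP1, encoded by Srebf2 and Srebf1, are held in the endoplasmic reticulum by the Insig proteins and carried to the Golgi by Scap when membrane sterol is low, after which they raise the genes of synthesis. When oxysterols accumulate, the nuclear receptor LXR instead raises the exporters Abca1 and Abcg1. In developing mesenchyme the pathway also bears on hedgehog signalling, since the hedgehog ligands carry a cholesterol group and the receptor Smoothened responds to sterols.

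The Gli1+ cells came from mice with Gli1-CreER, a tamoxifen-dependent Cre recombinase under the control of Gli1, a target gene of hedgehog signalling, together with the Rosa-Tomato reporter. The Amhr2+ cells came from mice with Amhr2-Cre, driven by the receptor gene of anti-Müllerian hormone, and the same reporter. For dams of either genotype the labels record tamoxifen, 1 mg to each dam, at E12.5 and once more at E13.5 (days of embryonic development), so all groups share this treatment. RNA-seq was made from Gli1+ cells of female and male mesonephroi, the tissue that carries the Wolffian and Müllerian ducts, at E14.5 and at E16.5. It was also made from Amhr2+ and Gli1+ cells of the uterus at E19.5. Tissue was dissociated with enzymes and the reporter-positive cells were sorted. Each of these 6 groups had 3 libraries. Age and time since tamoxifen cannot be told apart, because the last dose preceded E14.5 by 1 day, E16.5 by 3 days and E19.5 by 6 days. A Cre line marks the cells that expressed its driver when the recombinase was active, not every mesenchymal cell and not only mesenchymal cells.

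The fetal libraries held 23382983 to 64602477 counts each, and the uterine ones 28709191 to 37541045. Levels are given as CPM, counts scaled to library size, on which 3 counts lie between 0.0464 and 0.128 for the fetal table and between 0.0799 and 0.104 for the uterine table, for counting error only. The 8 mesenchyme markers, among them Pdgfra, Col1a1 and Vim, summed to between 26629 and 65048 CPM in every library. The 8 markers of steroid-producing cells, which also consume cholesterol, summed to at most 16.7 CPM, in fetal libraries most of it Star, and Cyp11b1 stood at 0 in all fetal libraries. Red-cell markers summed to 979 CPM in E14.5 female replicate 3 and to at most 55.8 CPM in every other library. The labels do not say whether replicates came from separate litters or animals, so the p-values measure the spread between these libraries, which may be partly technical. In bulk samples fewer cells of a type and less RNA per cell cannot be told apart.

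Promoters of 5 enzymes that were lower in females at E16.5 are shown first, because sterol-responsive genes are classically recognised through a short element near the start site together with CCAAT and GC boxes. Each line gives the 150 bases before the start site as annotated by RefSeq on GRCm38.p6, read 5′ to 3′ on the gene's own strand. Capitals mark TCACNCCAC, the core of the sterol response element in the form searched, and CCAAT, each in either orientation, so that a CCAAT on the opposite strand reads ATTGG. Hmgcs1 lies on chr13:119690201-119690350, plus strand, Idi1 on chr13:8885456-8885605, plus strand, Msmo1 on chr8:64733579-64733728, minus strand, Hsd17b7 on chr1:169969206-169969355, minus strand, and Cyp51 on chr5:4104698-4104847, minus strand.
Hmgcs1: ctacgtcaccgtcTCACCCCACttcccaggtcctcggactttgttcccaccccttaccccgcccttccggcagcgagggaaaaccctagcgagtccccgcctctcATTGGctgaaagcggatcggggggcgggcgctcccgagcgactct
Idi1: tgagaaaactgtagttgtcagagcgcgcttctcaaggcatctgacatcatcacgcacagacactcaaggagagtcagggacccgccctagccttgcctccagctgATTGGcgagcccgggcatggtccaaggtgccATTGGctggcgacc
Msmo1: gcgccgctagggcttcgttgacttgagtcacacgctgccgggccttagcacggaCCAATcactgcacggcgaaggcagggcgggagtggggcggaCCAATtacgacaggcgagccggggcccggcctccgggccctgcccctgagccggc
Hsd17b7: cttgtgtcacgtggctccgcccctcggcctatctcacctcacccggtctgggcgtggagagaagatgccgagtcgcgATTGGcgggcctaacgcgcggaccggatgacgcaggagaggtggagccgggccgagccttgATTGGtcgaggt
Cyp51: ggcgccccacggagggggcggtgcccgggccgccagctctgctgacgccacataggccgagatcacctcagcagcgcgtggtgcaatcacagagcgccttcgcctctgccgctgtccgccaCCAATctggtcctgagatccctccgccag

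Among these 5 stretches, Hmgcs1, which encodes the enzyme that forms HMG-CoA, alone held TCACNCCAC, and all 5 held CCAAT. RefSeq promoter windows of 300 bases, 250 before to 50 after the start, were matched for 22 of the 28 genes. CCAAT on either strand was present in a window of 19 of the 22 genes and in 20 of their 30 windows (66.7%), against 37.4% of 32851 windows genome-wide. GGGCGG on either strand, the GC box that Sp1 binds, was present for 21 of the 22 genes and in 25 of 30 windows (83.3%), against 35.7% genome-wide. TCACNCCAC occurred in 1 of the 30 windows (3.33%), that of Hmgcs1, against 1.24% genome-wide. A match describes letters and not a bound site, and other spellings of the element were not searched. The genome-wide windows, of 27025 genes, were not limited to genes that passed the low-count filter, as all 28 members did. The part of being expressed in these shares was not tested. In the deposited list of 71040 accessible regions, made for all ATAC-seq samples (accessible chromatin) without a value per sample, all 28 genes had a region over a start site, as did 81.3% of 14577 tested genes. Without a value per sample, a change in accessibility at the promoters could not be measured here.

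Levels can be compared between genes only per length. In CPM per kilobase of exon, the highest-ranked genes in E14.5 females were Insig1 at 46.7 ± 9.07 (SD, n = 3), the enzyme gene Hmgcs1 at 35.5 ± 3.90 and Srebf2 at 33.8 ± 0.529, and Hmgcs1 and Srebf2 were not separated beyond their spread. The lowest were Fdps, the farnesyl diphosphate synthase, at 0.306 ± 0.0611 and the exporter gene Abcg1 at 0.148 ± 0.0216. Npc2, a lysosomal cholesterol carrier, stood in E14.5 females at 28.5 ± 1.11 and ranked highest in E16.5 females at 31.2 ± 0.455, where Insig1 stood at 29.7 ± 10.4 and Hmgcs1 at 22.5 ± 4.25. In E16.5 males Insig1 at 50.4 ± 21.1 and Hmgcs1 at 37.9 ± 6.62 again headed the order, within each other's spread. Fdps lies beside same-strand transcripts in the annotation and has processed copies in the mouse genome, so reads may have been lost or shared and its level is uncertain.

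At E14.5 part of the synthesis pathway was lower in females than in males, with most of the calls at the squalene and sterol steps. Of the 28 genes, 7 passed edgeR's adjusted threshold of 0.05 (25%), all lower in females, against 6.28% of all genes tested in either direction, 3.69% lower and 2.59% higher. All 7 were enzymes, 1 of 7 at the mevalonate steps and 6 of 11 at the squalene and sterol steps, and 17 of the 18 enzymes had a log2 fold change (female minus male) below 0. The medians of these steps were close, at -0.3 and -0.37, and a difference between the steps was not tested. The median over the 28 genes was -0.31, beside -0.01 over all genes tested.

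Fdft1, the squalene synthase, measured 33.9, 34.3 and 32.8 CPM in the females of E14.5 and 41.1, 53 and 54.8 CPM in the males. The groups did not overlap, and male replicate 1 was the closest to the females. Its log2 fold change was -0.56 (SE 0.1, adjusted p 0.00296). Msmo1, an oxidase that acts in removal of sterol methyl groups, stood at 51.5, 45.2 and 40.8 CPM in females and 67.2, 72.5 and 65.9 CPM in males, and its log2 fold change was -0.58 (adjusted p 0.00528, SE 0.112). Every male library lay above every female library. Sqle, the squalene epoxidase that limits the rate of the late pathway, measured 97.1, 94.5 and 90.3 CPM in females and 117, 125 and 126 CPM in males (log2 fold change -0.38, SE 0.0797, adjusted p 0.00825). Its replicates spread by little beside the gap between the sexes.

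Lss, which closes squalene epoxide into lanosterol, stood at 31.5, 34.2 and 32 CPM in females and 40.5, 44.9 and 46.2 CPM in males, a log2 fold change of -0.43. Nsdhl, the X-linked dehydrogenase of the methyl removal steps, measured 20, 21.3 and 21.1 CPM in females and 27.2, 26 and 28.3 CPM in males, a log2 fold change of -0.39. Sc5d, a late sterol desaturase, measured 37.9, 38.3 and 37.3 CPM in females and 47, 51.9 and 47.6 CPM in males, a log2 fold change of -0.37. None of these 3 overlapped between the sexes. Fdps was the largest of the 7 by fold, at 1.3, 1.51 and 1.01 CPM in females and 1.77, 3.1 and 2 CPM in males (log2 fold change -0.86, SE 0.224, adjusted p 0.0316), and also the least abundant.

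Fdft1 and Msmo1 kept an adjusted p under 0.05 in all 19 alternatives run for this comparison, with highest values of 0.0237 and 0.0353. The count of 7 fell to 3 without E14.5 female replicate 3, to 4 without female replicate 1, male replicate 2 or male replicate 3, to 5 without female replicate 2, and rose to 10 without E14.5 male replicate 1; no count included a gene higher in females except 1 in the last. Fdps was lost in 7 alternatives, among them without each E14.5 female library and without male replicates 2 and 3, and Lss and Nsdhl in 4 each, among them without female replicate 1 and without male replicate 3. Sc5d was lost without E14.5 male replicate 2 (adjusted p 0.0525) and Sqle without E14.5 female replicate 3 (0.0509). Of the 10 regulator and transport genes 0 were called at E14.5 by edgeR or by DESeq2, and 3 (Srebf1, Npc2 and Abcg1) had an unadjusted p under 0.05: Srebf2 had a log2 fold change of -0.08, Srebf1 of -0.21 and Insig1 of -0.26.

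**Figure D1:**
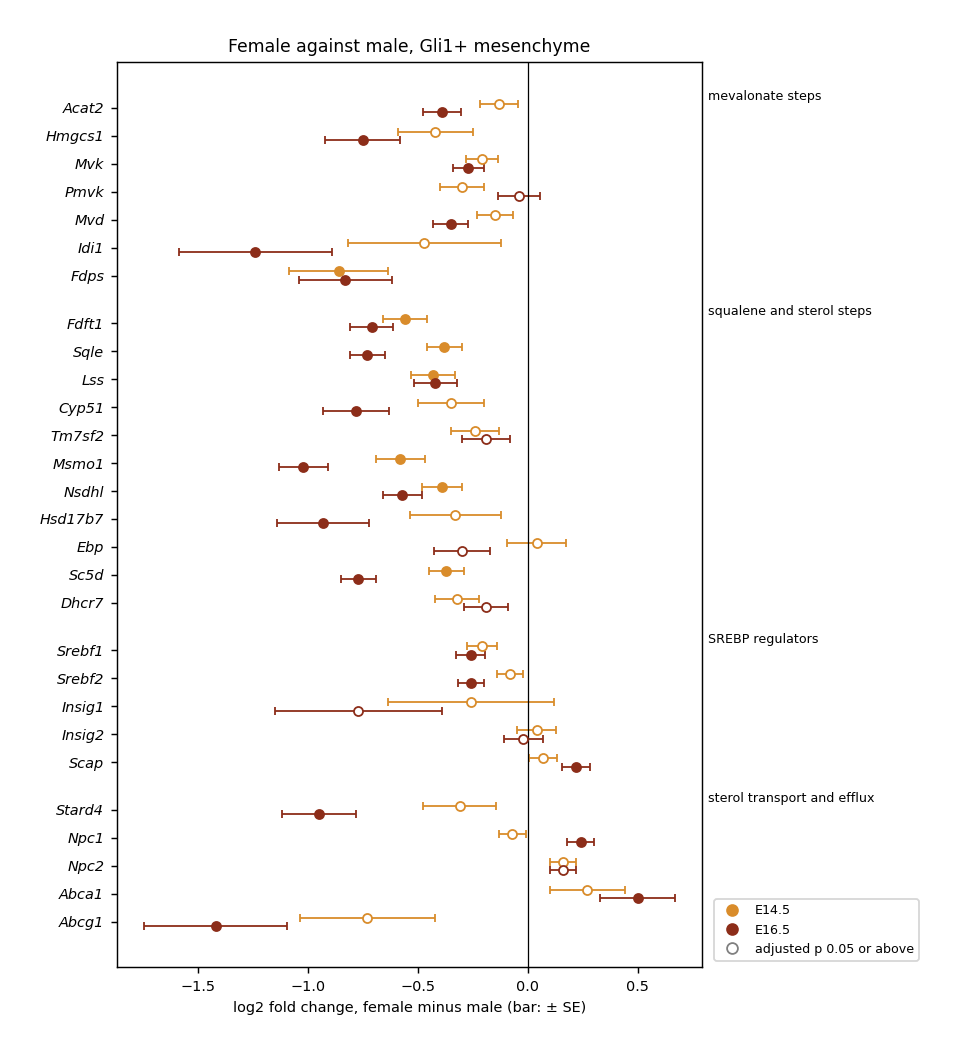
Log2 fold change of each of the 28 genes between females and males (x axis, female minus male; bar, ± SE), grouped by role on the y axis, at E14.5 (orange) and E16.5 (dark red). Filled points have an adjusted p under 0.05 by edgeR; at E16.5 all 18 enzymes lie left of 0, and 14 are filled.

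At E16.5 the sex difference covered most of the pathway. Of the 28 genes, 21 passed the threshold (75%), 18 lower and 3 higher in females, against 27.3% of all genes tested, 14.1% lower and 13.2% higher. Of the enzymes 14 of 18 were called, all lower in females, and all 18 had a log2 fold change below 0, with a median of -0.64. The 28 genes had a median of -0.41, beside 0.01 over all genes tested. In none of the 21 called genes did female and male libraries overlap, which with 3 libraries a group goes largely with the call and is not separate support.

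The mevalonate steps were called in 6 of 7 genes. Idi1, the isomerase that makes the reactive isoprenoid unit, measured 5.9, 3.47 and 7.63 CPM in E16.5 females and 7.75, 15.3 and 17 CPM in males. The highest female library and male replicate 1 nearly met, and the other male libraries stood well above. Its log2 fold change was -1.24 (SE 0.348, adjusted p 0.0248), the largest among the enzymes and among the least certain. Hmgcs1 measured 112, 82.2 and 122 CPM in females and 145, 171 and 217 CPM in males, and its log2 fold change was -0.75 (adjusted p 0.00679, SE 0.17). Fdps stood at 1.42, 1.33 and 1.29 CPM in females and 2.42, 2.38 and 2.41 CPM in males, a log2 fold change of -0.83 with tight replicates. Acat2, which condenses acetyl-CoA, Mvd, the mevalonate diphosphate decarboxylase, and Mvk, the mevalonate kinase, were called with smaller log2 fold changes of -0.39, -0.35 and -0.27. Pmvk, the phosphomevalonate kinase between them, was not called and measured 24.1, 25.2 and 25.6 CPM in females and 26, 25.5 and 25.5 CPM in males, a log2 fold change of -0.04.

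At the squalene and sterol steps, 8 of 11 genes were called. Msmo1 had the largest fold of these, at 35.5, 26.8 and 35.3 CPM in E16.5 females and 61.6, 61.7 and 73.8 CPM in males, a 2.02-fold difference (log2 fold change -1.02, SE 0.112, adjusted p 6.05e-06). Females lay far below males in every library. Hsd17b7, the sterol ketoreductase of the methyl removal steps, measured 16.6, 15.3 and 19.6 CPM in females and 20.4, 37.9 and 39.6 CPM in males (log2 fold change -0.93, SE 0.209, adjusted p 0.00697). Male replicate 1 stood just above the highest female library. Cyp51, the cytochrome P450 that demethylates lanosterol, measured 95.2, 83 and 107 CPM in females and 124, 165 and 201 CPM in males, a log2 fold change of -0.78 (adjusted p 0.00219).

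Sc5d (chromosome 9, 42251595 to 42264256 on mm10) had the lowest adjusted p of the 28 genes, at 26.8, 26.5 and 24.4 CPM in E16.5 females and 39.5, 48.4 and 44.8 CPM in males (log2 fold change -0.77, SE 0.0782, adjusted p 2.01e-06). Sqle followed at 78.7, 63.5 and 73.8 CPM in females and 113, 115 and 131 CPM in males (log2 fold change -0.73, adjusted p 4.23e-06). Fdft1, Nsdhl and Lss were lower in females by log2 fold changes of -0.71, -0.57 and -0.42. The remaining sterol steps were not called. Tm7sf2, a sterol reductase, had a log2 fold change of -0.19, Ebp, the sterol isomerase on the X chromosome, of -0.30, and Dhcr7, the reductase of the final step, of -0.19. With the replicate number as a block, which the check of pairing allowed at E16.5 by a narrow margin, Ebp and Dhcr7 were called (adjusted p 0.0397 and 0.0421), and so was Npc2, higher in females at 0.16 (0.0491).

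Among the regulators Srebf2 measured 204, 195 and 179 CPM in E16.5 females and 225, 238 and 227 CPM in males, and its log2 fold change was -0.26 (adjusted p 0.00437, SE 0.0592). Srebf1, which drives fatty acid genes more than sterol genes, had the same log2 fold change of -0.26 at 76.5, 72.4 and 69.6 CPM in females and 92.4, 85.1 and 84.8 CPM in males. Scap, the escort of both factors, went the other way, at 58.2, 60.7 and 56.3 CPM in females and 53.7, 49.2 and 47.3 CPM in males (log2 fold change 0.22, adjusted p 0.0169). Insig1 (chromosome 5, 28071363 to 28078662), itself a gene that SREBP raises, measured 85.9, 65.1 and 131 CPM in females and 84.2, 170 and 225 CPM in males. The groups overlapped through male replicate 1, and the log2 fold change of -0.77 (SE 0.38) was not called (adjusted p 0.181). Without that library the log2 fold change of Insig1 was -1.08 with an adjusted p of 0.0332. Insig2, the isoform that is not a classical SREBP target, stood at 24.1, 22.4 and 22.7 CPM in females and 22.9, 23.6 and 23.9 CPM in males, a log2 fold change of -0.02.

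The transport genes split by direction. Stard4, a soluble cholesterol carrier, measured 35.7, 27.9 and 35.2 CPM in E16.5 females and 46.8, 68.9 and 74.9 CPM in males, and its log2 fold change was -0.95 (adjusted p 0.00135, SE 0.169). Every female library was below every male library. Abcg1 measured 0.245, 0.542 and 0.632 CPM in females and 1.07, 0.988 and 1.68 CPM in males, and its log2 fold change was -1.42 (adjusted p 0.00421, SE 0.327) at levels near the bottom of the table. Its partner exporter Abca1 was higher in females, at 46.8, 52.5 and 59.2 CPM against 30.6, 39.2 and 42.4 CPM in males (log2 fold change 0.50, adjusted p 0.0498). Npc1, the lysosomal membrane protein that releases cholesterol, was higher in females at 75.1, 74.3 and 76.4 CPM against 60.7, 65.5 and 64.7 CPM (log2 fold change 0.24, adjusted p 0.00702). The exporters had opposite signs in the same libraries, with Abca1 close to the threshold and Abcg1 at 10, 22 and 25 counts in the females. A part of LXR was not tested.

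Of the 21 calls at E16.5, 18 held in all 19 alternatives. The exceptions were Abca1, lost in 12 of them, among them without any single E16.5 library, Idi1, lost without E16.5 female replicates 1 or 2 or male replicates 2 or 3 and in 2 other alternatives, and Scap, lost without the same 4 libraries and in 1 other. The count of called members ranged from 18 to 24 over these alternatives. It was 22, 19 lower and 3 higher, both without E16.5 male replicate 1 and when the level of dissociation genes, described further on, was a covariate.

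**Figure D2:**
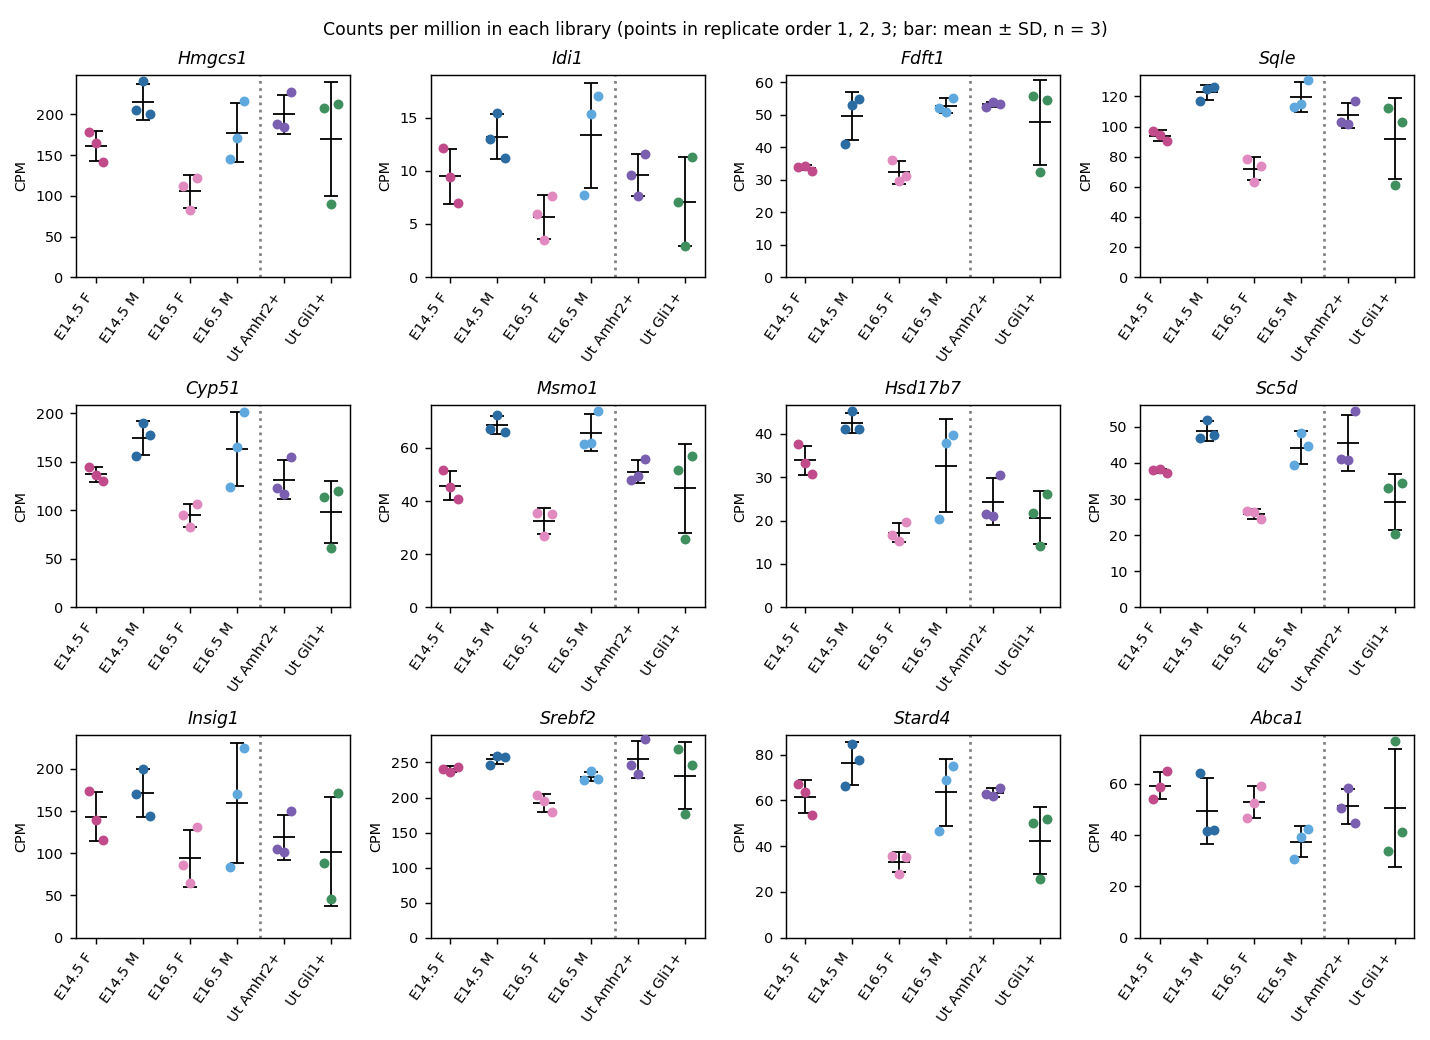
CPM (y axes, from 0) of 12 of the genes in each library of the 6 RNA-seq groups (F, female; M, male; Ut, uterus at E19.5); points are replicates 1, 2 and 3 from left to right and bars are mean ± SD (n = 3). The dotted line parts the fetal table from the uterine table, which were made with different kits and are not compared; E16.5 females are lowest of the fetal groups for Sc5d, with 24.4 to 26.8 CPM.

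Other measured features moved with the sex difference at E16.5. All 8 cell cycle genes were lower in females, with summed levels of 1269 to 1481 CPM against 1527 to 2115 CPM in males, while none of the 8 was called at E14.5, where sums were 1853 to 2056 CPM in females and 1754 to 1891 CPM in males. Of the 6 smooth muscle markers 5 were lower in E16.5 females, at sums of 465 to 567 CPM against 1716 to 2893 CPM in males, and at E14.5 sums were 302 to 326 CPM against 607 to 888 CPM. Of the 8 macrophage and immune markers 6 were higher in E16.5 females, with overlapping sums of 33.1 to 80.9 CPM in females and 14.2 to 48.3 CPM in males. Epithelial markers summed to 30.8 to 35.4 CPM in females and 45.4 to 53.8 CPM in males at E14.5, and to 24 to 32.4 CPM and 33.1 to 40.8 CPM at E16.5, without overlap. The 8 genes did not move as a set: 1 was called at each age, lower in females, and 4 at E14.5 and 3 at E16.5 were above 0. Endothelial markers summed to 65.1 to 78.5 CPM in E16.5 females and 82.2 to 91.8 CPM in males, also without overlap, and to 115 to 127 CPM and 103 to 117 CPM at E14.5. Single endothelial genes were split at E16.5: of 6 tested, 2 were called higher and 2 lower in females, with a median log2 fold change of 0.05. The part of these features in the sterol genes' difference was not tested. The steroidogenic list stayed at 6.42 to 9.9 CPM in E16.5 females and 7.55 to 11.9 CPM in males, a small fraction of the enzymes' summed level of 529 to 615 CPM and 820 to 1013 CPM.

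The sex difference at E16.5 stood beside a fall with age in part of the set in females. From E14.5 to E16.5 in females 12 of the 28 genes were called (42.9%), 9 lower and 3 higher, against 39.6% of all genes tested, 18.6% lower and 21.0% higher, so the total share is near the background and the share that fell is above it. Of the 18 enzymes 7 were called (38.9%), 6 lower and 1 higher, a share also near the background. Their log2 fold changes were below 0 in 12 of 18, with a median of -0.13. The enzymes' summed level, to which the most abundant enzymes add most, was 790, 749 and 708 CPM in females of E14.5 and 615, 529 and 606 CPM in E16.5 females. In males it was 916, 1033 and 967 CPM at E14.5 and 820, 915 and 1013 CPM at E16.5, with overlap. The contrasts of age and of sex share libraries, so their values are given side by side and not as separate support.

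Hsd17b7 had the largest fall with age among the enzymes in females, from 37.5, 33.2 and 30.8 CPM at E14.5 to 16.6, 15.3 and 19.6 CPM at E16.5 (log2 fold change -0.98, SE 0.212, adjusted p 0.00403). Abcg1 fell from 0.935, 1.04 and 1.23 CPM to 0.245, 0.542 and 0.632 CPM (log2 fold change -1.17, SE 0.35, adjusted p 0.0152), and Stard4 from 67.4, 63.9 and 53.7 CPM to 35.7, 27.9 and 35.2 CPM (log2 fold change -0.91, adjusted p 0.00143). In each of these 3 genes the ages did not overlap. The same genes had log2 fold changes of -0.37, -0.48 and -0.26 in males, none of them called.

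Hmgcs1 fell in females from 178, 165 and 141 CPM to 112, 82.2 and 122 CPM (log2 fold change -0.62, adjusted p 0.0147), Cyp51 from 145, 136 and 130 CPM to 95.2, 83 and 107 CPM (log2 fold change -0.52, adjusted p 0.0165), and Sc5d from 37.9, 38.3 and 37.3 CPM to 26.8, 26.5 and 24.4 CPM (log2 fold change -0.55, adjusted p 6.56e-05). Msmo1, Sqle and Srebf2 fell by 0.50, 0.38 and 0.32 on the log2 scale. Pmvk rose, from 19.7, 17.9 and 19.2 CPM to 24.1, 25.2 and 25.6 CPM (log2 fold change 0.40, adjusted p 0.00504), against the direction of the other called enzymes. Npc1 and Npc2, the lysosomal exit route for cholesterol, rose by log2 fold changes of 0.18 and 0.17. Enzymes that were lower in females than in males at both ages did not all fall with age: Fdft1 had a log2 fold change of -0.06 with age in females, Lss of 0.05 and Fdps of 0.08.

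In 6 of these 12 genes the call held in all 19 alternatives, namely Hsd17b7, Msmo1, Sc5d, Sqle, Srebf2 and Stard4. Abcg1 was lost without E14.5 female replicate 3 or E16.5 female replicate 1, Cyp51 without E14.5 female replicate 1 or E16.5 female replicate 2 and with no low-count filter, and Hmgcs1 without E14.5 female replicate 1 and with no filter. Npc1 and Npc2 were lost in 8 and 7 alternatives, among them without E14.5 female replicates 1 or 2 and without any single E16.5 female library, and Pmvk was lost with the dissociation list as a covariate (adjusted p 0.0961). Without E14.5 female replicate 1 the count of 12 was 8, 7 lower and 1 higher. The cell cycle list fell as well in females, in 6 of 8 genes, and its part in these changes was not tested.

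In males few of the sterol genes were called with age. Of the 28 genes 2 were called (7.14%), both higher at E16.5, against 23.3% of all genes tested, 13.1% higher and 10.2% lower. Ebp measured 7.62, 5.98 and 6.4 CPM at E14.5 and 9.66, 8.17 and 9.71 CPM at E16.5 (log2 fold change 0.47, SE 0.129, adjusted p 0.0144), and lost its call without E14.5 male replicates 2 or 3. Npc2 measured 141, 133 and 137 CPM at E14.5 and 166, 154 and 145 CPM at E16.5 (log2 fold change 0.18, adjusted p 0.0429), a call lost in 11 of 19 alternatives. The count of 2 was 0 without E14.5 male replicate 2 or 3 and 3 without E14.5 male replicate 1. It was 1 without any single E14.5 female library, without E16.5 female replicate 3 or without E16.5 male replicate 2. The median over the 28 genes was -0.05, beside -0.01 over all genes tested.

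**Figure D3:**
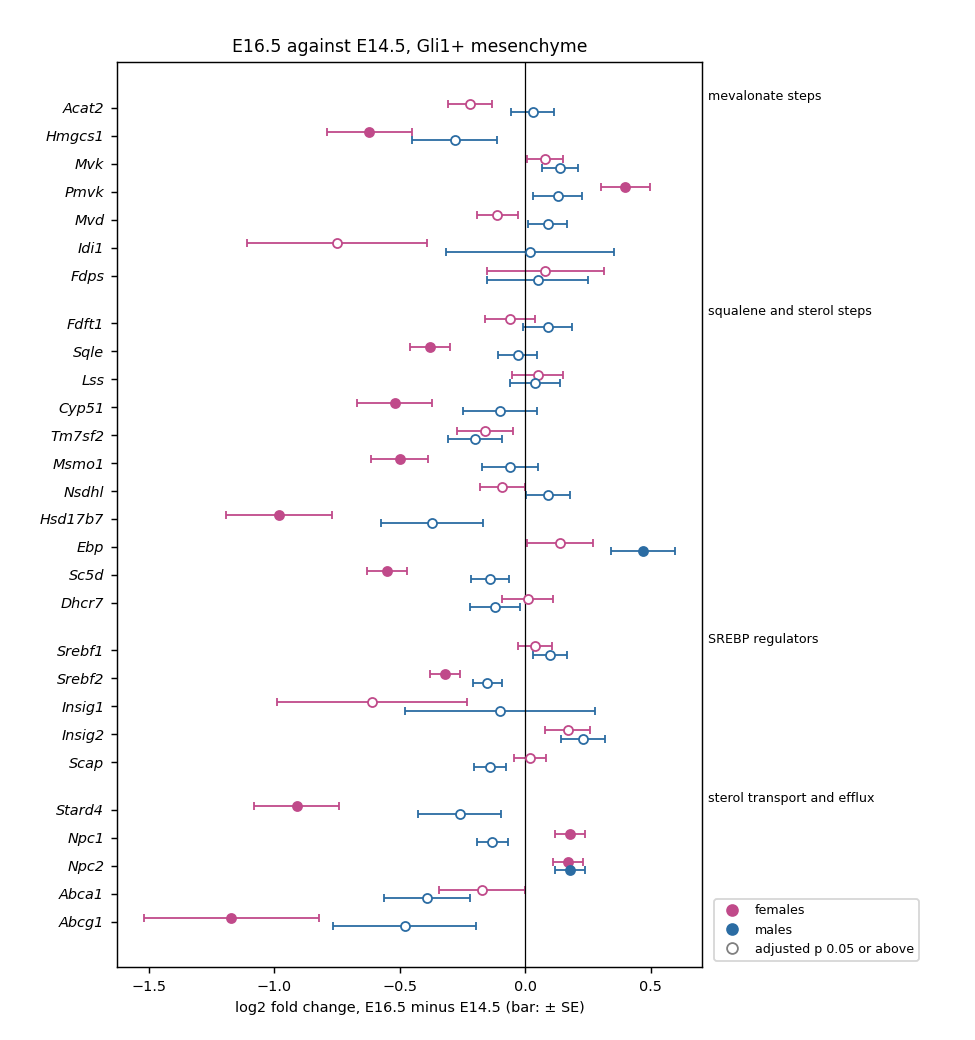
Log2 fold change of each of the 28 genes from E14.5 to E16.5 (x axis, E16.5 minus E14.5; bar, ± SE), grouped by role on the y axis, in females (pink) and males (blue). Filled points have an adjusted p under 0.05 by edgeR; 12 are filled in females and 2 in males.

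Whether the change with age differed between the sexes was tested directly with an interaction, the sex difference at E16.5 minus that at E14.5. Of the 28 genes 2 were called (7.14%), 1 above and 1 below 0, against 10% of all genes tested, 4.66% above and 5.36% below, so the members were called no more often than the background. Sc5d, with the values above, had an interaction of -0.40 (SE 0.11, adjusted p 0.0277), lower in females by 0.37 on the log2 scale at E14.5 and by 0.77 at E16.5. The interaction of Npc1 was 0.31 (adjusted p 0.031, SE 0.0857). Its E14.5 female libraries stood at 66.7, 63.7 and 68.9 CPM and its male libraries at 71.9, 65.9 and 70.8 CPM, which overlap, and it had, as given above, higher levels in E16.5 females than in E16.5 males. The enzymes were below 0 in 13 of 18 genes, with a median of -0.23, beside 0.02 over all genes tested. For most enzymes the difference between the sexes was thus not shown to change with age: Msmo1 had an interaction of -0.44 (adjusted p 0.101), Sqle of -0.35 (0.0616), Hsd17b7 of -0.61 (0.247) and Idi1 of -0.77 (0.399).

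The interaction counts rested on single libraries. Without E16.5 male replicate 1 there were 6 called genes, 5 below and 1 above 0, and with the dissociation list as a covariate 6, all below 0. Among them Stard4 stood at -0.82 and -1.11, with adjusted p of 0.00463 and 0.000711. Without E14.5 female replicate 1 or 2, E14.5 male replicate 3 or E16.5 female replicate 3 there were 0, with edgeR.

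In the uterus at E19.5 edgeR called 1 of the 28 genes between Amhr2+ and Gli1+ cells. This was Npc1, lower in Amhr2+ cells at 56.6, 57 and 53.1 CPM against 69.9, 78.4 and 73.2 CPM in Gli1+ cells (log2 fold change, Amhr2+ minus Gli1+, -0.41, SE 0.0672, adjusted p 0.00354). The groups did not overlap, and the call held in all 12 alternatives. That is 3.57% of the 28 genes, against 23.9% of all 16195 genes tested, 13.7% lower and 10.1% higher. Of the 18 enzymes 14 were above 0, with a median of 0.20. By edgeR 0 of them were called and 1, Sc5d, had an unadjusted p under 0.05, while DESeq2 called Sc5d (adjusted p 0.00681) and, outside the enzymes, Stard4 (0.0271). The libraries of the groups did not overlap in 6 of the 28 genes, namely Npc1, Npc2, Lss, Sc5d, Stard4 and Tm7sf2. The share of all genes without overlap was not counted, so this number is a description only. Sc5d stood at 41.2, 40.7 and 54.4 CPM in Amhr2+ and 33, 20.3 and 34.5 CPM in Gli1+ cells (log2 fold change 0.63, SE 0.211, adjusted p 0.07), without overlap.

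The spread among the Gli1+ uterine libraries was large and shared by the pathway. Gli1+ replicate 2 lay below the mean of its group in all 18 enzymes, by 0.48 on average on the log2 scale. Over all genes tested its mean deviation was 0.016. Replicates 1 and 3 lay above the group mean in all 18 enzymes, which follows in part from the low values of replicate 2. The enzymes summed to 515 CPM in replicate 2 against 910 and 903 CPM in replicates 1 and 3, and to 875, 851 and 1013 CPM in the Amhr2+ libraries. Hmgcs1 was at 89.5 CPM in replicate 2 against 208 and 213 CPM, Idi1 at 2.94 against 7.03 and 11.3 CPM, and Stard4 at 25.5 against 50.1 and 51.7 CPM. The exporters lay the other way: Abca1 was at 76.7 CPM in replicate 2 against 33.9 and 41.2 CPM, and Abcg1 at 0.557 against 0.179 and 0.302 CPM. For Abcg1 these are only 18 counts against 6 and 10, so its difference is uncertain. Insig1 stood at 45.8 CPM against 88.5 and 172 CPM. Npc1 at 78.4 CPM, Npc2 at 216 CPM and Insig2 at 27.9 CPM were the highest of their group in that library, by small margins.

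**Figure D4:**
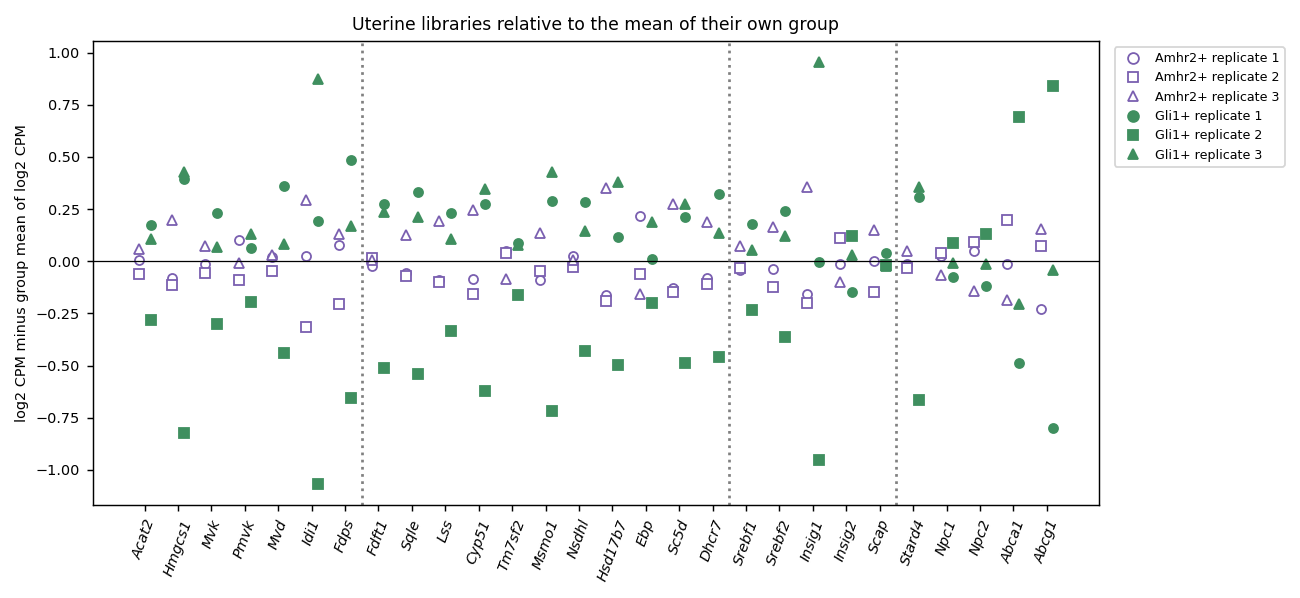
Each uterine library's log2 CPM minus the mean of its own group (y axis) for the 28 genes (x axis; dotted lines part the mevalonate steps, the squalene and sterol steps, the regulators and the transport genes). Open purple symbols are Amhr2+ and filled green symbols Gli1+ libraries. The green squares, Gli1+ replicate 2, lie below 0 in all 18 enzymes and above 0 for Abca1 and Abcg1, the latter at only 18 counts.

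Without Gli1+ replicate 2 the uterine log2 fold changes of 13 of the 18 enzymes were nearer to 0, and their median was -0.03. Hmgcs1 went from 0.23 to -0.08, Cyp51 from 0.42 to 0.17 and Idi1 from 0.44 to 0.06, none of them called, and Sc5d was 0.42 (adjusted p 0.0658). In that fit 3 genes were called: Npc1 at -0.37, Mvk at -0.38 (adjusted p 0.0158) and Stard4, higher in Amhr2+ cells at 0.31 (adjusted p 0.0125).

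The library that stood apart also stood apart in the response to tissue dissociation. A list of 10 immediate early and heat shock genes, commonly raised when tissue is digested with enzymes, summed to 1261 CPM in Gli1+ replicate 2 against 6416 and 12283 CPM in replicates 1 and 3, and to between 3883 and 5080 CPM in Amhr2+ libraries. In E16.5 males the sums were 3872, 11066 and 18680 CPM, and Insig1 stood at 84.2, 170 and 225 CPM in the same order. In E16.5 females the sums were 13465, 10141 and 17027 CPM, with Insig1 at 85.9, 65.1 and 131 CPM and Hmgcs1 at 112, 82.2 and 122 CPM, again in the same order. Over the 6 groups, the 3 libraries of a group ranked alike by gene and by list in 5 groups for Cyp51 and Hsd17b7 and in 4 groups for Hmgcs1, Idi1, Insig1 and Stard4. These 6 genes are 21.4% of the 28, and 5.42% of 15821 genes tested in both tables ranked alike in 4 or more groups. The cell cycle list ranked libraries the same way in 4 or more groups for 5 of the 28 genes (17.9%), against 4.51% of genes. These are descriptions of 3 libraries per group, and the part of either list in the levels was not tested.

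**Figure D5:**
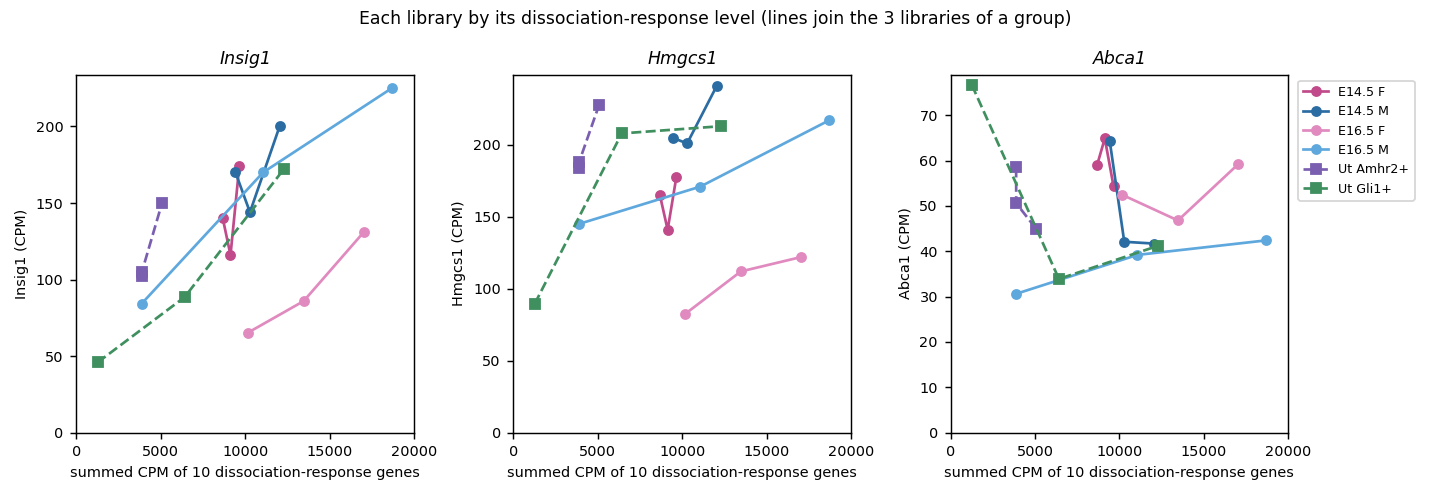
CPM of Insig1, Hmgcs1 and Abca1 (y axes, from 0) against the summed CPM of 10 dissociation-response genes (x axes) in each of the 18 RNA-seq libraries; lines join the 3 libraries of a group (solid circles fetal, dashed squares uterine). Insig1 is lowest in the library with the lowest sum in E16.5 males (84.2 CPM) and in uterine Gli1+ cells (45.8 CPM), while Abca1 in those libraries is the lowest of the E16.5 males (30.6 CPM) and the highest of the Gli1+ cells (76.7 CPM).

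With the mean of that list as a covariate, an alternative chosen after the libraries' values were seen, 13 of the 28 genes were called in the uterus, 12 higher in Amhr2+ cells and Npc1 lower. The 12 comprised 11 enzymes and the carrier Stard4, with Stard4 at a log2 fold change of 0.87 (adjusted p 0.000545), Sc5d at 0.83 (0.0103), Hmgcs1 at 0.62 (0.0184) and Fdft1 at 0.37 (0.00624). The main fit, without the covariate, called none of these 12, and 3 of them were called in other alternatives. These were Sc5d, Stard4 and, with library size only, Tm7sf2 (adjusted p 0.0493). The fit without Gli1+ replicate 2, the library lowest in the dissociation list, differed from the covariate fit. In it 8 enzymes were above and 9 below 0, with a median of -0.03. The covariate calls thus depend on how that library is treated, and are no separate evidence of a difference between the cells. At E16.5, with the same covariate, the 14 enzymes called between the sexes were called again, 10 of them further from 0 and 4 nearer. Hmgcs1 stood at -1.03 and Idi1 at -1.68, Acat2 went from -0.39 to -0.32 and Nsdhl from -0.57 to -0.53, and among the enzymes not called Tm7sf2 went from -0.19 to 0.01 and Dhcr7 from -0.19 to -0.04.

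Genes that surround the pathway were read from a list of 61 genes for control, uptake, esterification, oxysterols, isoprenoid branches and fatty acid synthesis, of which 60 were tested in the fetal table and 58 in the uterine table. They were called at E14.5 between the sexes in 9 of 60 genes (2 higher and 7 lower in females) and at E16.5 in 23 of 60 (7 higher and 16 lower), or 15% and 38.3%, beside 6.28% and 27.3% of all genes tested, with medians of -0.05 and -0.08. The 9 genes of the isoprenoid branch, which carries farnesyl units to other products, had log2 fold changes from -0.27 to 0.12 at E16.5. Fatty acid synthesis had 5 of 13 genes called at E14.5 (38.5%) and 8 of 13 at E16.5 (61.5%), 7 of the 8 lower in females, against the same shares of all genes.

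Vldlr, a lipoprotein receptor, reversed its sex difference between the ages. It measured 160, 160 and 173 CPM in E14.5 females against 93.6, 82.2 and 96.4 CPM in males (log2 fold change 0.86, adjusted p 1.75e-05), and 76.1, 72 and 63.3 CPM in E16.5 females against 165, 187 and 157 CPM in males (log2 fold change -1.27, adjusted p 2.75e-08). The groups did not overlap at either age, in opposite directions. Cav1, which builds the cholesterol-rich caveolae, stood at 121, 146 and 155 CPM in E16.5 males against 27, 24.8 and 24.8 CPM in females (log2 fold change -2.46), and at 18.1, 18 and 25.1 CPM in E14.5 males. Caveolae are abundant in smooth muscle, whose markers are given above, and their part was not tested. Gramd1b, which moves cholesterol from the plasma membrane to the endoplasmic reticulum, was lower in E16.5 females (log2 fold change -1.30), and so was Cyp27a1, a sterol hydroxylase that makes an oxysterol, at 15.7, 14.2 and 16.7 CPM against 31.6, 33.3 and 30.8 CPM (log2 fold change -1.04). With age 9 of 60 listed genes were called in males (15%) and 28 in females (46.7%), against 23.3% and 39.6% of all genes tested. With age in males Cyp27a1 rose by a log2 fold change of 2.07 and Cav1 by 2.78, and Mylip, Soat1 and Fasn fell by 0.60, 0.43 and 0.30 on the log2 scale. In females Cyp27a1 and Cav1 were called higher too, at 1.19 and 0.92. Female means of Soat1, Fasn and Mylip were also lower at E16.5, at 95, 379 and 27.8 CPM against 127, 453 and 32.9 CPM, with overlap for Mylip. The call of Mylip with age in males was lost without E14.5 male replicate 3, without E16.5 male replicates 1 or 2 and with no low-count filter. That of Fasn was lost without E14.5 male replicate 3, without E16.5 male replicate 1 and with only the 6 libraries compared.

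In the uterus 19 of the 58 listed genes were called (32.8%), 9 higher and 10 lower in Amhr2+ cells, against 23.9% of all genes tested, 10.1% higher and 13.7% lower. Elovl6, a fatty acid elongase, measured 155, 154 and 168 CPM in Amhr2+ against 92.1, 63.3 and 97.2 CPM in Gli1+ cells, and its log2 fold change was 0.91 (adjusted p 0.00482). Lpin1, a phosphatidate phosphatase, was higher in Amhr2+ cells at 0.66 and Cyp7b1, an oxysterol hydroxylase, lower at -0.65. These 3 calls held in all 12 alternatives. Cav1 was lower in Amhr2+ cells at -0.68 (adjusted p 0.0452), a call lost in 8 alternatives, among them without Amhr2+ replicate 1 and without each Gli1+ library in turn. Epithelial markers summed to between 71.7 and 73.7 CPM in Amhr2+ and between 31.9 and 43.4 CPM in Gli1+ cells, mesenchyme markers to between 26629 and 28479 CPM and between 54906 and 61850 CPM, and their part in these results was not tested.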

How the data were processed

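RNA-seq of sorted mouse cells was read from the authors' deposited tables of raw counts per gene, a fetal table of 12 libraries and a uterine table of 6. The submitters' processing notes list mm10, STAR 2.5, featureCounts and Subread 1.5.0-p1; annotation version and strand use are not given in the sources used here. Per the labels' protocols the fetal kit was non-stranded and the uterine kit stranded, so the tables were fitted apart, and counts of genes that overlap others (among them Fdft1, Cyp51, Hmgcs1, Idi1, Lss, Mvd, Srebf1, Srebf2, Scap, Insig2, Npc1, Abcg1 and Tm7sf2) are uncertain. The deposited peak list has positions only.

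Each table was fitted with edgeR 4.0.16 in R 4.3.3 (filterByExpr by group, TMM, robust quasi-likelihood, group means), with Benjamini-Hochberg adjustment over 17858 fetal or 16195 uterine genes and a threshold of 0.05; the procedure was tested on simulated data. The SE is the log2 fold change divided by the root of the F statistic, and CPM uses TMM-scaled totals. Exon length and start sites are from GENCODE. Every member may be named, with values by library for up to 8 called members per contrast. Other pathway genes are named by fold among those called, without overlap (not asked of the interaction) and at 10 CPM or more. The members and lists were chosen with earlier results of these data known, and some listed genes are not reported here.

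Whether replicate numbers pair the libraries was checked by correlating, within each number, how far the libraries lay from their group means. Between the sexes at E16.5 the correlations were 0.28, 0.11 and 0.4, all above 0.1, which held in no other comparison. The highest correlation there between libraries of different numbers was also 0.11. The main fit paired no libraries in any comparison, and the replicate block was run in each comparison as an alternative only. Replicates of a group differed beyond sampling noise. Alternatives were other normalizations, no filter, DESeq2 1.42.0, a replicate block, only the 6 libraries compared, each library left out, and the dissociation covariate.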

Additional observations from a re-analysis of the deposited data

Results flagged for a closer look

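By edgeR's quasi-likelihood test of the interaction, the sex difference changed between E14.5 and E16.5 in 2 of the 28 sterol genes (7.14%). Of the genes around the pathway 9 of 60 were called (15%), 1 above and 8 below 0, against 10% of all genes tested. Only 5 of these are given here. Sc5d had an interaction of -0.40 on the log2 scale (adjusted p 0.0277). The call was lost in 6 of 18 alternatives, without any single E14.5 female library, E14.5 male replicate 3, E16.5 female replicate 3 or E16.5 male replicate 2, with values from -0.55 to -0.34. Npc1 had an interaction of 0.31 (adjusted p 0.031), lost in 9 of 18 alternatives, among them without E14.5 female replicates 1 or 2, E14.5 male replicate 3, any single E16.5 female library or E16.5 male replicate 3, with values from 0.28 to 0.35.

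Among the genes around the pathway, the 5 interactions given here held in all 18 alternatives. Vldlr stood at -2.13 (adjusted p 3.91e-08), Cav1 at -1.86 (8.87e-06), Gramd1b at -1.02 (3.81e-05), Cyp27a1 at -0.87 (0.000344) and Elovl6 at -0.52 (0.00896). Vldlr is the gene of these whose female and male libraries changed places between the ages without overlap.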

How the results depend on the processing

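No result reversed its direction with a call in any alternative run. The count of called members at E14.5 between the sexes was 7, and 3 to 10 when each library was left out; for all genes it was 1121, and 553 to 1678. At E16.5 it was 21, and 18 to 22 with libraries left out. With age in females it was 12, and 8 to 13. With age in males it was 2, and 1 with the replicate block, 1 with only the 6 libraries compared, 4 with the dissociation covariate and 0 to 3 with libraries left out. For the interaction it was 2, and 4 with DESeq2, 4 with the replicate block, 6 with the covariate and 0 to 6 with libraries left out; all genes gave 1790, and 1335 to 2687. In the uterus it was 1, and 3 with library size only, 3 with DESeq2, 3 with the replicate block, 13 with the covariate and 1 to 3 with libraries left out; all genes gave 3866, and 1949 to 3521. Where the cause is not the removal of a library, it was not tested.

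Scaling by library size only moved the split of called genes to 3130 higher and 3924 lower with age in females (3746 and 3322 with TMM), 1847 and 2641 with age in males (2340 and 1828), and 2849 and 1640 in the uterus (1642 and 2224). The replicate block also called Dhcr7 at E14.5 (adjusted p 0.00893), Msmo1 and Sqle in the interaction (0.0239 and 0.0289), and Npc2 and Sc5d in the uterus (0.0497 and 0.0118), and lost Npc1 with age in females (0.0721) and Npc2 with age in females (0.0712) and males (0.0994), and Cav1 in the uterus (0.0537). Beside those given with the E16.5 sex difference, it changed no other call. With 3 libraries a group, and 0.0464 CPM at best as the level of 3 counts, small differences in Abcg1 and Fdps are not resolved.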
